A study of Homo sapiens and Pan troglodytes with 11 samples.

Results

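Cell-to-cell covariation of 10 genes was examined in neurons of C3649, a chimpanzee induced pluripotent stem cell line, in the 3 libraries measured with the 10-gene probe panel (XC124, XC152 and XC168). Members were all cells with at least 100 gene UMIs (unique molecular identifiers, each standing for 1 captured probe molecule): 9812 of the 11419 deposited cells of these libraries, in a series of 41950 cells. They numbered 2797 of 2800 in XC124, 2953 of 3107 in XC152 and 4062 of 5512 in XC168. HyPR-seq hybridises probes for chosen transcripts in fixed, permeabilised cells and counts them by droplet barcode. The series asks what human accelerated regions, conserved stretches of DNA that changed fast on the human lineage, do in 2-week-old excitatory neurons.

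XC124 and XC152 were C3649 libraries of screen replicate 1, and XC168 was the single C3649 library of screen replicate 2 with this panel. The human libraries used for comparison came from the line WTC11: XC123, XC125 and XC151 in screen replicate 1 and XC167 in screen replicate 2. Cells of every group carried CRISPR interference, a method that silences a chosen site with a repressor fused to inactive Cas9, and a pool of guides with 28 barcodes. The labels list no group without it, and a map from barcode to target was not used here. Each species was 1 line, and no label states that libraries came from separate cultures, so the spread between libraries may be technical. The labels call the cells excitatory neurons. Of 26 markers listed for neurons, progenitors, pluripotent cells and glia, 0 were on the panel or on any panel of the series, so the cell type could not be checked.

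When the genes of a cell are counted to a fixed total, a gene with a varying share makes its own count vary more than sampling does, and genes that vary together or in opposition show it as a correlation between cells. Such covariation can follow cell state, maturation or shared regulation, and in any fixed total a gene that takes more leaves less for the others. The panel holds 3 genes known for neuronal roles: AKAP6 anchors protein kinase A at the nuclear envelope, NPAS3 is a transcription factor of the developing brain, and TENM3 is a teneurin, an adhesion protein of neuronal wiring. RHOB is a small GTPase acting on the actin skeleton and endosomes, and ARHGAP5 switches such GTPases off. BAZ1A is a subunit of chromatin-remodelling complexes, PUM2 represses messenger RNAs it binds, PSMA6 is a proteasome subunit, DCTD makes a precursor of thymidine nucleotides, and LAPTM4A is a lysosomal membrane protein.

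The 10 genes lie in 3 stretches of the human genome (GRCh38, GENCODE v29). On chromosome 14 lie ARHGAP5 (chr14:32076114-32159728, + strand), AKAP6 (chr14:32329273-32837681, +), NPAS3 (chr14:32934933-33804176, +), BAZ1A (chr14:34752731-34875647, -) and PSMA6 (chr14:35278633-35317493, +). On chromosome 2 lie LAPTM4A (chr2:20032650-20052028, -), PUM2 (chr2:20248691-20352234, -) and RHOB (chr2:20447074-20449445, +), and on chromosome 4 TENM3 (chr4:182143987-182803024, +) and DCTD (chr4:182890060-182917936, -). All coordinates are human, since no chimpanzee genome was used here, and how well the probes match chimpanzee transcripts was not examined.

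AKAP6 and RHOB varied together and NPAS3 in opposition to them in 2 of the 3 libraries described below, so a promoter window of each is shown. These are human RefSeq promoter windows (GRCh38.p14), 5′ to 3′ on the gene's strand, with matches to the searched motifs in capitals. The AKAP6 stretch ends where its first annotated exon begins. The NPAS3 window lies inside the gene as given above, past its GENCODE start.
AKAP6, chr14:32329048-32329272, + strand: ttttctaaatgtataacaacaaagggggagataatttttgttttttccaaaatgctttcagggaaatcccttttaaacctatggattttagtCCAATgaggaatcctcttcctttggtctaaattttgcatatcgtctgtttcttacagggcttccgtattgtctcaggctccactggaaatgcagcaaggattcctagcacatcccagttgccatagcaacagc
RHOB, chr2:20446824-20447073, + strand: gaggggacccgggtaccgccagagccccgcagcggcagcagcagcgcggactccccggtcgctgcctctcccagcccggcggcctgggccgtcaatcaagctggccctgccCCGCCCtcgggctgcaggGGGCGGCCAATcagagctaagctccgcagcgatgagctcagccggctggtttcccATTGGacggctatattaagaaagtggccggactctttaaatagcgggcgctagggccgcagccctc
NPAS3, chr14:32938629-32938878, + strand: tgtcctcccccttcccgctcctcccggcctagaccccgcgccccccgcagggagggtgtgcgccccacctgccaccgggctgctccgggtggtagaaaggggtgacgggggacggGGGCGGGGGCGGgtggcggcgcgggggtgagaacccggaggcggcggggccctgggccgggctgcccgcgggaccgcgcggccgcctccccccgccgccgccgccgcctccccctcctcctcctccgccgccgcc

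The AKAP6 stretch was 39.6% G and C, against 68.8% for RHOB and 82.8% for NPAS3. AKAP6 and RHOB held CCAAT (1 and 2 matches, both strands searched), and RHOB and NPAS3 held GGGCGG (2 matches each). In RHOB a GGGCGG match adjoins a CCAAT match, and in NPAS3 the GGGCGG matches adjoin. Of the 9 genes with a window in the table (BAZ1A had none), GGGCGG occurred before 8, CCAAT before 5, CACGTG before 1, and TGACGTCA and TATAAA before 0, where a gene with several starts counts once. Over all 35114 windows of 250 bases, 42.6% held GGGCGG, 32.0% CCAAT, 6.35% CACGTG, 1.65% TGACGTCA and 10.7% TATAAA. These are shares of single windows, and a gene with several windows had more chances to match, so the 2 are not alike. All matches are of letters and say nothing of binding.

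The libraries differed in depth and in how many cell barcodes they share with others. The median member cell had 568 gene UMIs in XC124, 252 in XC152 and 148.5 in XC168, and over all deposited cells the leading guide barcode held a median 39.1%, 47.8% and 10% of a cell's guide UMIs. XC168 shared 1436 cell barcodes with XC166, a C3649 library of a 21-gene panel, and 400 with the human library XC167. In total 1160 of its 4062 member cells (28.6%) had a barcode found in another library, against 20 in XC124 and 23 in XC152. Of the 1436 barcodes, 603 (42.0%) had the same leading guide barcode in both libraries, where the guides' frequencies alone give 4.38%. The main results that rest on XC168 are therefore also given without these cells.

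Mean shares of the genes were of like size in the 3 libraries. Per 100 gene UMIs, RHOB had 19.1 in XC124, 24.3 in XC152 and 22.1 in XC168, and PUM2 had 22.4, 19.4 and 19.9. TENM3 had 10.3, 9.69 and 10.8, AKAP6 had 9.37, 11.2 and 8.82, and NPAS3 had 9.25, 7.30 and 9.18. LAPTM4A had 9.37 ± 0.923 (SD, n = 3 libraries), DCTD 7.90 ± 0.469, BAZ1A 4.37 ± 0.50, PSMA6 4.25 ± 1.04 and ARHGAP5 3.05 ± 0.0385. The mean AKAP6, NPAS3 and TENM3 shares of XC168 lay nearer to XC124 than to XC152. These are probe counts and do not compare transcript levels between genes.

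Single genes varied between cells of XC124 and XC152 far more than cells drawn from the library's mean profile, and less so in XC168. From the 5th to the 95th percentile of cells, AKAP6 ran from 2 to 19 UMIs of 100 in XC124 and from 2 to 21 in XC152, where drawn cells run from 5 to 14 and from 6 to 17. In XC168 it ran from 4 to 14, as in drawn cells. A mean 1.51% of XC124 cells and 1.01% of XC152 cells held 0 AKAP6 UMIs of 100, against 0.0479% in XC168. For NPAS3 the range was 2 to 18 in XC124, 1 to 16 in XC152 and 4 to 15 in XC168. RHOB ran from 8 to 33, from 11 to 39 and from 14 to 32. Without the shared-barcode cells, XC168 ran from 4 to 14 for AKAP6, from 4 to 15 for NPAS3 and from 14 to 33 for RHOB. The cells of XC124 and XC152 thus spread on both sides of the drawn cells for all 3 genes.

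**Figure D1:**
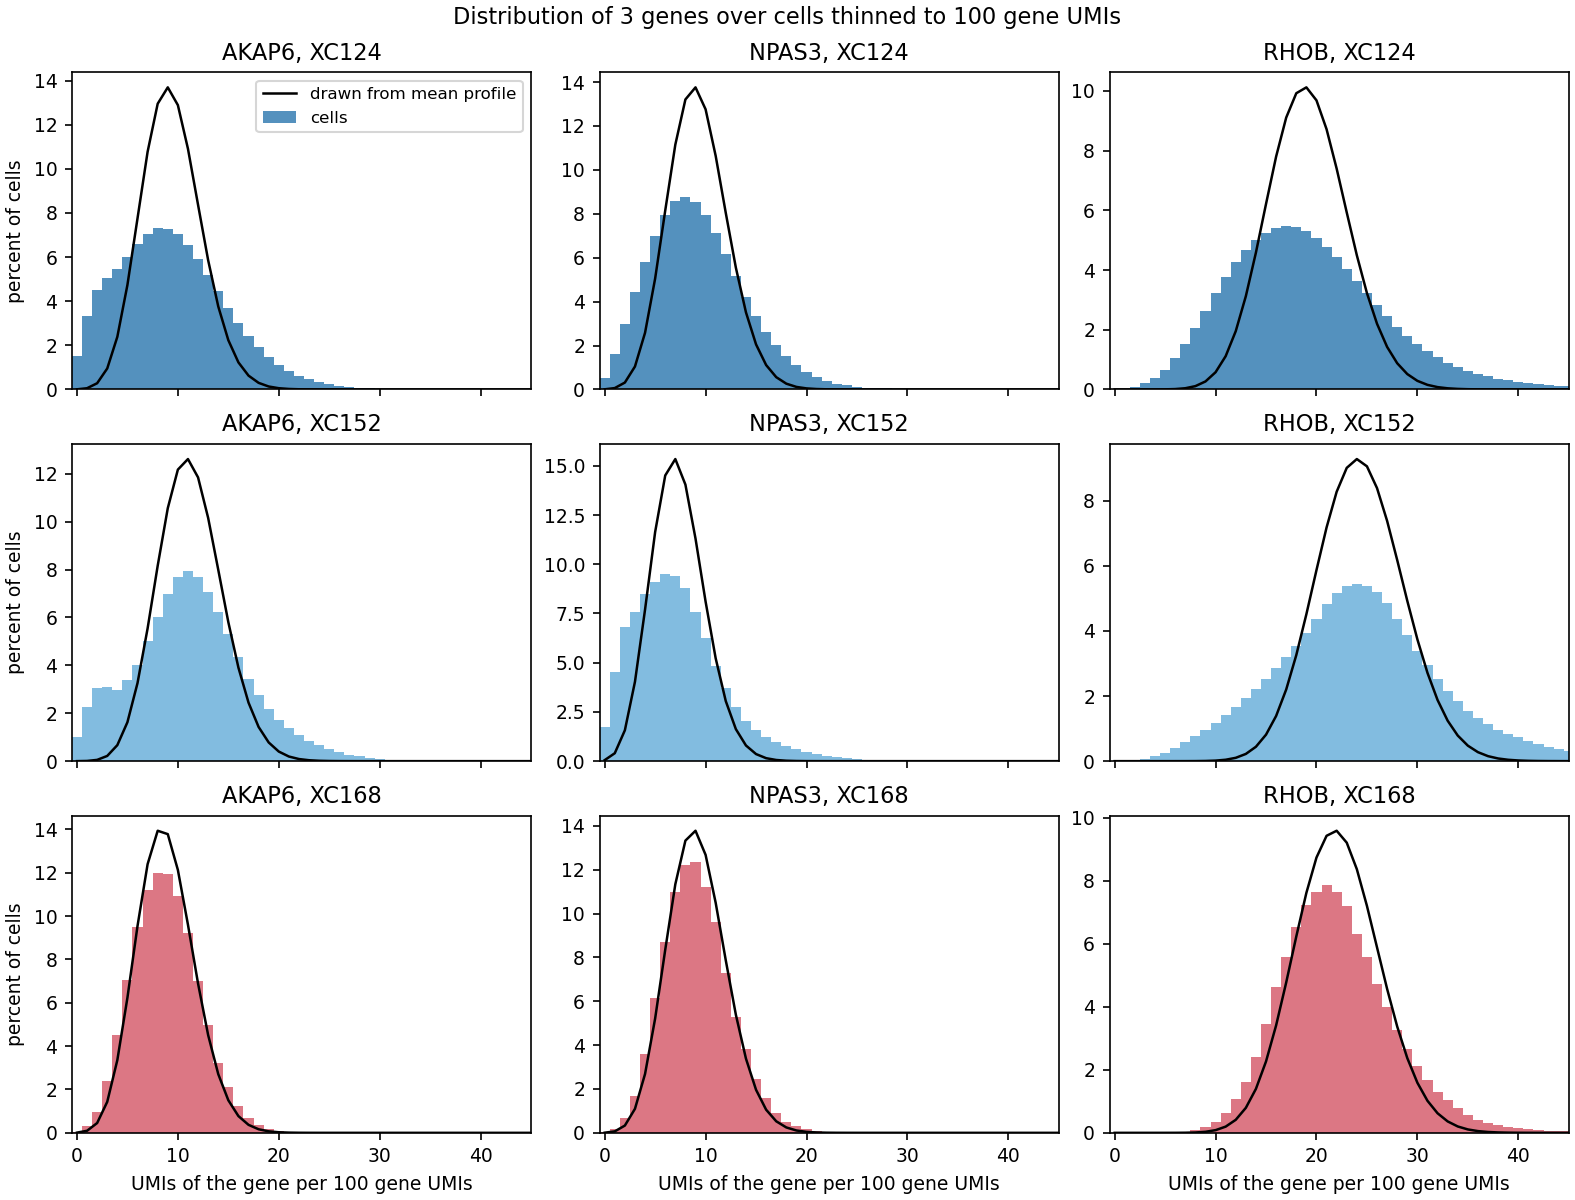
Distribution of AKAP6, NPAS3 and RHOB over member cells thinned to 100 gene UMIs (bars, percent of cells on the vertical axis, UMIs of the gene on the horizontal axis), with cells drawn from the library's mean profile as black lines. In XC124 and XC152 the bars are lower and wider than the line, with AKAP6 reaching 19 and 21 UMIs at the 95th percentile, while in XC168 AKAP6 reaches 14, as the line does.

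The variance ratio, the observed variance over that of drawn cells, summarises this. It was 3.40 in XC124, 3.17 in XC152 and 1.30 in XC168 for AKAP6, and 2.61, 2.96 and 1.28 for NPAS3. RHOB had 3.91, 3.90 and 1.78, and TENM3 had 1.85, 2.19 and 1.17. In each of these 4 genes XC168 was the low library. In the human libraries AKAP6 stood at 1.30 to 1.37, NPAS3 at 1.03 to 1.36 and TENM3 at 1.13 to 1.37. Human RHOB was wide in screen replicate 1, at 3.63 in XC123, 2.61 in XC125 and 2.26 in XC151, and was 1.23 in XC167. Without its shared-barcode cells XC168 had 1.33 for AKAP6, 1.33 for NPAS3, 1.93 for RHOB and 1.18 for TENM3. BAZ1A had 1.58, 2.09 and 1.19 and PUM2 1.82, 1.90 and 1.52, while ARHGAP5, DCTD, LAPTM4A and PSMA6 lay between 1.10 and 1.35 in all 3. The difference of XC168 from XC124 and XC152 was tested with limma on log2 ratios, with spread from the libraries of screen replicate 1 of both lines, so the lone XC168 is assumed to vary like them. It called 5 of 10 genes, 50% of those tested, all lower in XC168. AKAP6 differed by -1.34 ± 0.09 on the log2 scale (SE, limma adjusted p = 0.000134). NPAS3 differed by -1.11 ± 0.11 (limma adjusted p = 0.000637), TENM3 by -0.79 ± 0.14, RHOB by -1.14 ± 0.28 and DCTD by -0.29 ± 0.08. BAZ1A, at -0.61 ± 0.29 (limma adjusted p = 0.125), did not pass. Leaving out XC124 or XC152 left 3 calls each.

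**Figure D2:**
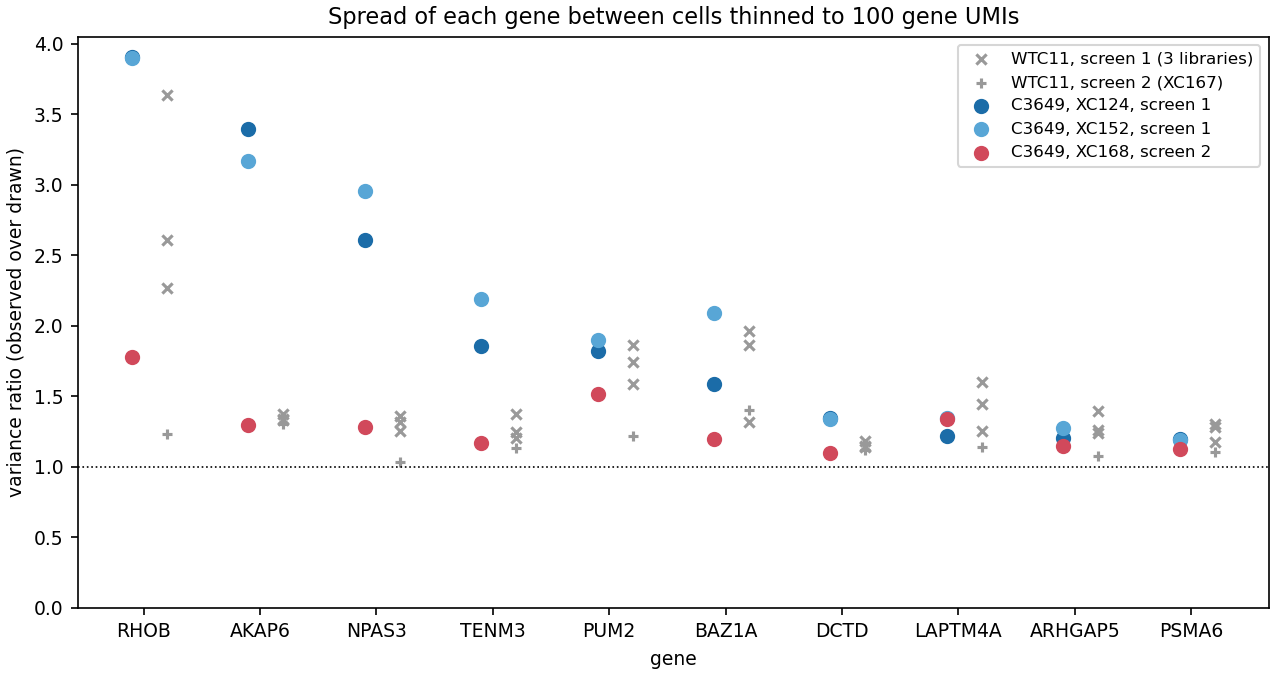
Variance ratio of each gene (vertical axis, observed over drawn, 1 is the dotted line) in the 3 chimpanzee libraries (filled points) and the 4 human libraries (crosses). AKAP6, NPAS3 and TENM3 stand at 1.85 to 3.40 in XC124 and XC152, above XC168 and all human libraries. RHOB stands at 3.63, 2.61 and 2.26 in the human libraries of screen replicate 1 and at 1.23 in XC167.

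Pairs of genes were described by the excess correlation, the Pearson correlation over cells thinned to 100 gene UMIs minus that of cells drawn from the mean profile, which is negative because the total is fixed. These values describe the 2797, 2953 and 4062 cells of each library, which share that library's handling and depth, and they carry no test within a library. For AKAP6 and RHOB the observed correlation was 0.304 in XC124 where drawn cells give -0.156, an excess of 0.460. A pair was called held when its excess had 1 sign and a size of at least 0.05 in all 3 libraries. Of the 45 pairs, 16 held, 11 positive and 5 negative, and 26 had 1 sign in all 3. Between XC124 and XC152 the median gap in excess was 0.0397 and the largest 0.162.

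In XC124 the largest excesses of the held pairs had a neuronal gene. AKAP6-RHOB was 0.460 in XC124, 0.353 in XC152 and 0.0654 in XC168. Cells with a large AKAP6 share thus also had a large RHOB share in XC124 and XC152, and XC168 was far lower. AKAP6-TENM3 was -0.285, -0.204 and -0.0909, and NPAS3-RHOB was -0.284, -0.231 and -0.111. BAZ1A-NPAS3 was 0.264, 0.238 and 0.0630. In these 4 pairs XC168 had the sign of the others and the smallest size. The size of an excess also depends on how far both genes vary beyond drawn cells. Scaled by that spread, AKAP6-TENM3 was -0.615, -0.453 and -0.614, and NPAS3-RHOB was -0.576, -0.489 and -0.540. On that scale XC168 was still the smallest for AKAP6-RHOB (0.479, 0.293 and 0.0280) and BAZ1A-NPAS3 (0.479, 0.348 and 0.261). Other pairs were larger on that scale in XC168 than in both other libraries. Among them were ARHGAP5-BAZ1A (0.486, 0.488 and 0.767), DCTD-TENM3 (0.488, 0.176 and 0.715) and AKAP6-LAPTM4A (-0.153, -0.301 and -0.652). A smaller excess in XC168 was thus not always a smaller scaled value. The tests below are of the excess, and these scaled values were not tested.

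Further negative pairs had RHOB too: BAZ1A-RHOB at -0.263, -0.223 and -0.120, and PUM2-RHOB at -0.177, -0.152 and -0.0971. RHOB, the most abundant gene in XC152, XC168 and on the mean of the 3 libraries, was thus in 4 of the 5 held negative pairs. ARHGAP5-BAZ1A was 0.132, 0.178 and 0.118, and XC168 lay within 0.05 of XC124 there.

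Further positive pairs held with PUM2, DCTD and LAPTM4A. BAZ1A-PUM2 was 0.184, 0.125 and 0.128, ARHGAP5-PUM2 was 0.0977, 0.0952 and 0.108, and NPAS3-PUM2 was 0.161, 0.120 and 0.0746. The nucleotide enzyme DCTD had 4 held pairs with the other 9 genes, all positive. Over all 45 pairs 16 held, 11 of them positive, and DCTD was not tested against that share. DCTD-TENM3, neighbours on chromosome 4, was 0.206, 0.104 and 0.0939, and DCTD-NPAS3 was 0.208, 0.0872 and 0.0527. DCTD-LAPTM4A (0.0666, 0.0767 and 0.103), DCTD-PSMA6 (0.0543, 0.0776 and 0.0687) and LAPTM4A-TENM3 (0.0826, 0.0627 and 0.135) were under 0.10 in XC124 and XC152, and LAPTM4A-TENM3 was among the larger values of XC168, where the highest of all 45 pairs was 0.145. DCTD-PSMA6 held under only 3 of 12 alternative settings, and its mean excess was 0.0223 by Spearman correlation against 0.0669. By position, 12 of 31 pairs across chromosomes held, 2 of 10 on chromosome 14, 1 of 3 on chromosome 2 and the 1 pair on chromosome 4.

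**Figure D3:**
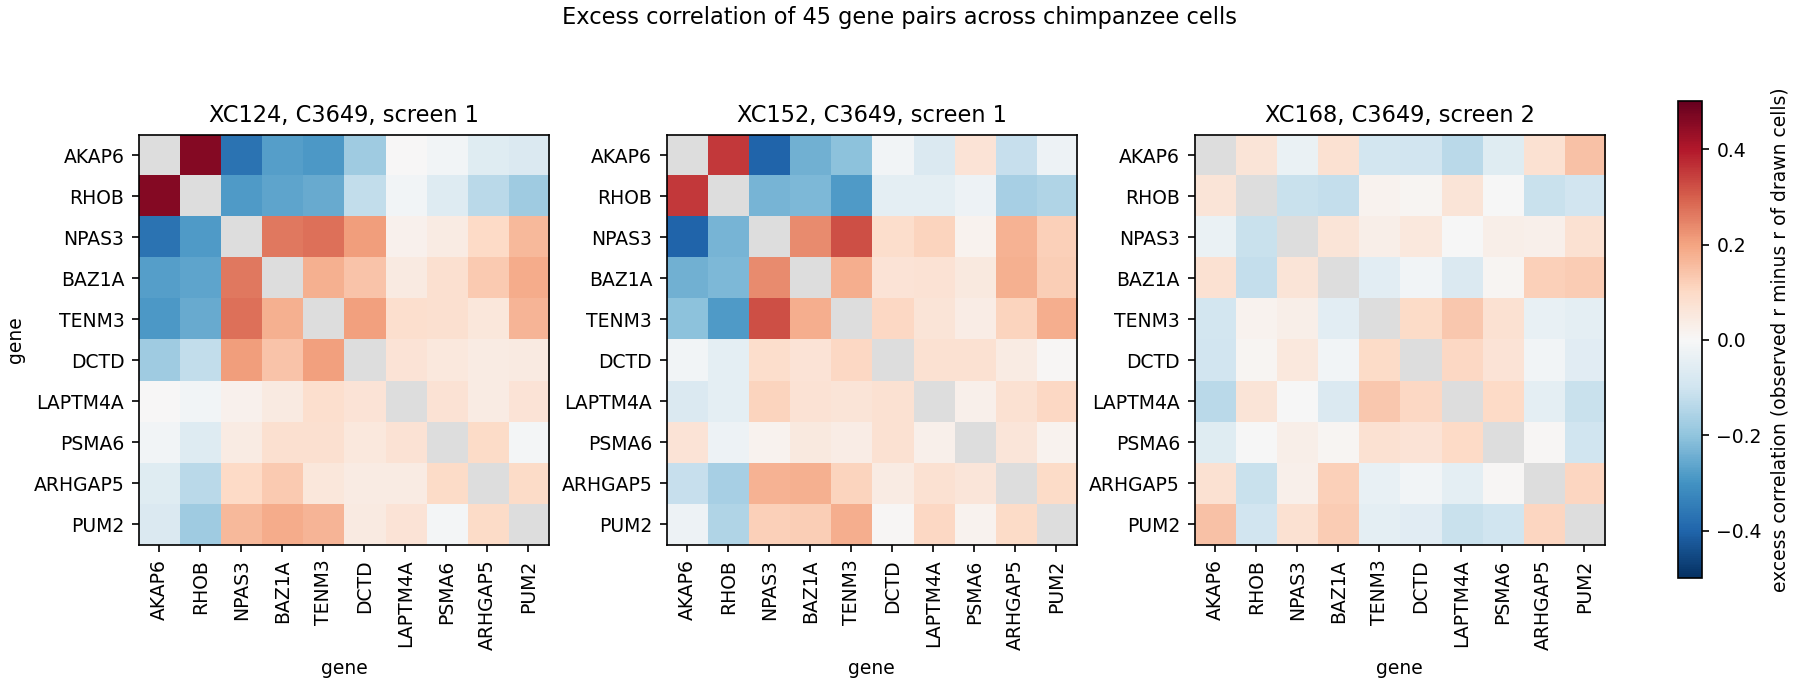
Excess correlation of all 45 pairs (colour, red positive and blue negative, limits at ± 0.5) in XC124, XC152 and XC168, with genes in 1 order on both axes and the diagonal left grey. XC124 and XC152 show AKAP6 and RHOB together (0.460 and 0.353) and against NPAS3, BAZ1A and TENM3, and in XC168 most of that block is pale.

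Many of these values depend on RHOB being in the total. With RHOB left out and cells thinned to 100 UMIs of the other 9 genes (2795, 2741 and 2738 cells), an alternative chosen after the data were seen, 5 of 36 pairs held. Only ARHGAP5-BAZ1A (0.0828, 0.137 and 0.110) and AKAP6-TENM3 (-0.240, -0.209 and -0.0849) remained of the 11 held pairs without RHOB. NPAS3-PUM2 became 0.000179, -0.0394 and 0.0274. The pairs AKAP6-NPAS3 (-0.359, -0.409 and -0.0793), AKAP6-PUM2 (0.0785, 0.113 and 0.187) and DCTD-PUM2 (-0.0724, -0.0634 and -0.115) held here and not over all member cells with RHOB in the total. AKAP6-NPAS3 thus had nearly the same values without RHOB in XC124 and XC152. BAZ1A-PUM2 was 0.0648, 0.00890 and 0.128. DCTD-LAPTM4A (0.0488, 0.0692 and 0.151) and DCTD-PSMA6 (0.0315, 0.0772 and 0.108) missed the threshold through XC124 alone. At 50 UMIs per cell, 7 of 45 pairs held with RHOB and 1 of 36 without. The cells also differed. With RHOB they were the member cells (4062 in XC168). Without RHOB they were all cells with at least 50 UMIs of the other 9 genes (5485 in XC168).

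XC124 and XC152 shared more pairs with each other than with XC168. In these libraries 28 of 45 pairs held, 19 positive and 9 negative. In XC168, 8 of the 28 had the other sign, 15 had the same sign and were nearer 0 than both, and 3 were larger than both. AKAP6-NPAS3 was -0.368 in XC124, -0.401 in XC152 and -0.0329 in XC168. NPAS3-TENM3 was 0.275, 0.324 and 0.0299, and RHOB-TENM3 was -0.253, -0.283 and 0.0176. AKAP6-BAZ1A turned from -0.275 and -0.240 to 0.0767. In all 4 pairs XC124 and XC152 lay within 0.05 of each other. These pairs and AKAP6-RHOB were named because XC168 lay farthest outside the range of XC124 and XC152 there. Their distance thus follows from the choice. Over the 45 pairs, 28 lay outside the range of XC124 and XC152 by at least 0.05, by a median of 0.108.

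The root mean square excess over the 45 pairs was 0.170 in XC124, 0.154 in XC152 and 0.0797 in XC168, against 0.107, 0.0593, 0.0677 and 0.0478 in the human libraries XC123, XC125, XC151 and XC167. With RHOB in the total, XC168 was thus the lowest of the chimpanzee libraries and lay within the human range. Without RHOB, thinned to 100 UMIs, the root mean square excess was 0.117 in XC124, 0.119 in XC152 and 0.102 in XC168. XC168 was still the lowest there, but by a far smaller gap. Thinned to 50 UMIs it was 0.0810, 0.0879 and 0.0504 without RHOB, against 0.118, 0.109 and 0.0448 with RHOB. These gaps were not tested. Values without RHOB are over 36 pairs, and at 50 UMIs the cells differed too, as given above.

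The test of XC168 against XC124 and XC152 (limma on excess over 7 libraries, 4 group means, Benjamini-Hochberg over 45 pairs) called 14 pairs, 31.1% of those tested, 7 higher and 7 lower in XC168. AKAP6-NPAS3 differed by 0.351 ± 0.0477 (SE, adjusted p = 3.04e-06) and AKAP6-BAZ1A by 0.334 ± 0.0488 (adjusted p = 5.38e-06). RHOB-TENM3 differed by 0.286 ± 0.0478, AKAP6-RHOB by -0.342 ± 0.0597 and NPAS3-TENM3 by -0.269 ± 0.0491. Of the 14, 12 had held in XC124 and XC152, and all 12 were nearer 0 or of the other sign in XC168. AKAP6 was in 6 of the called pairs and TENM3 in 5, with AKAP6-TENM3 counted for both, and 4 had neither. Every gene was in equally many of the 45 pairs. Whether AKAP6 or TENM3 exceeded the called share of 31.1% was not tested. The weaker calls were BAZ1A-TENM3 (-0.230), PUM2-TENM3 (-0.226), LAPTM4A-PUM2 (-0.198), AKAP6-PUM2 (0.194), BAZ1A-NPAS3 (-0.188), AKAP6-ARHGAP5 (0.162), AKAP6-TENM3 (0.154), NPAS3-RHOB (0.147) and BAZ1A-LAPTM4A (-0.133). ARHGAP5-BAZ1A differed by -0.0372 ± 0.0495 (limma adjusted p = 0.548) and was not called. Without XC124 there were 8 calls, without XC152 there were 12, and the chimpanzee libraries alone gave 10.

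**Figure D4:**
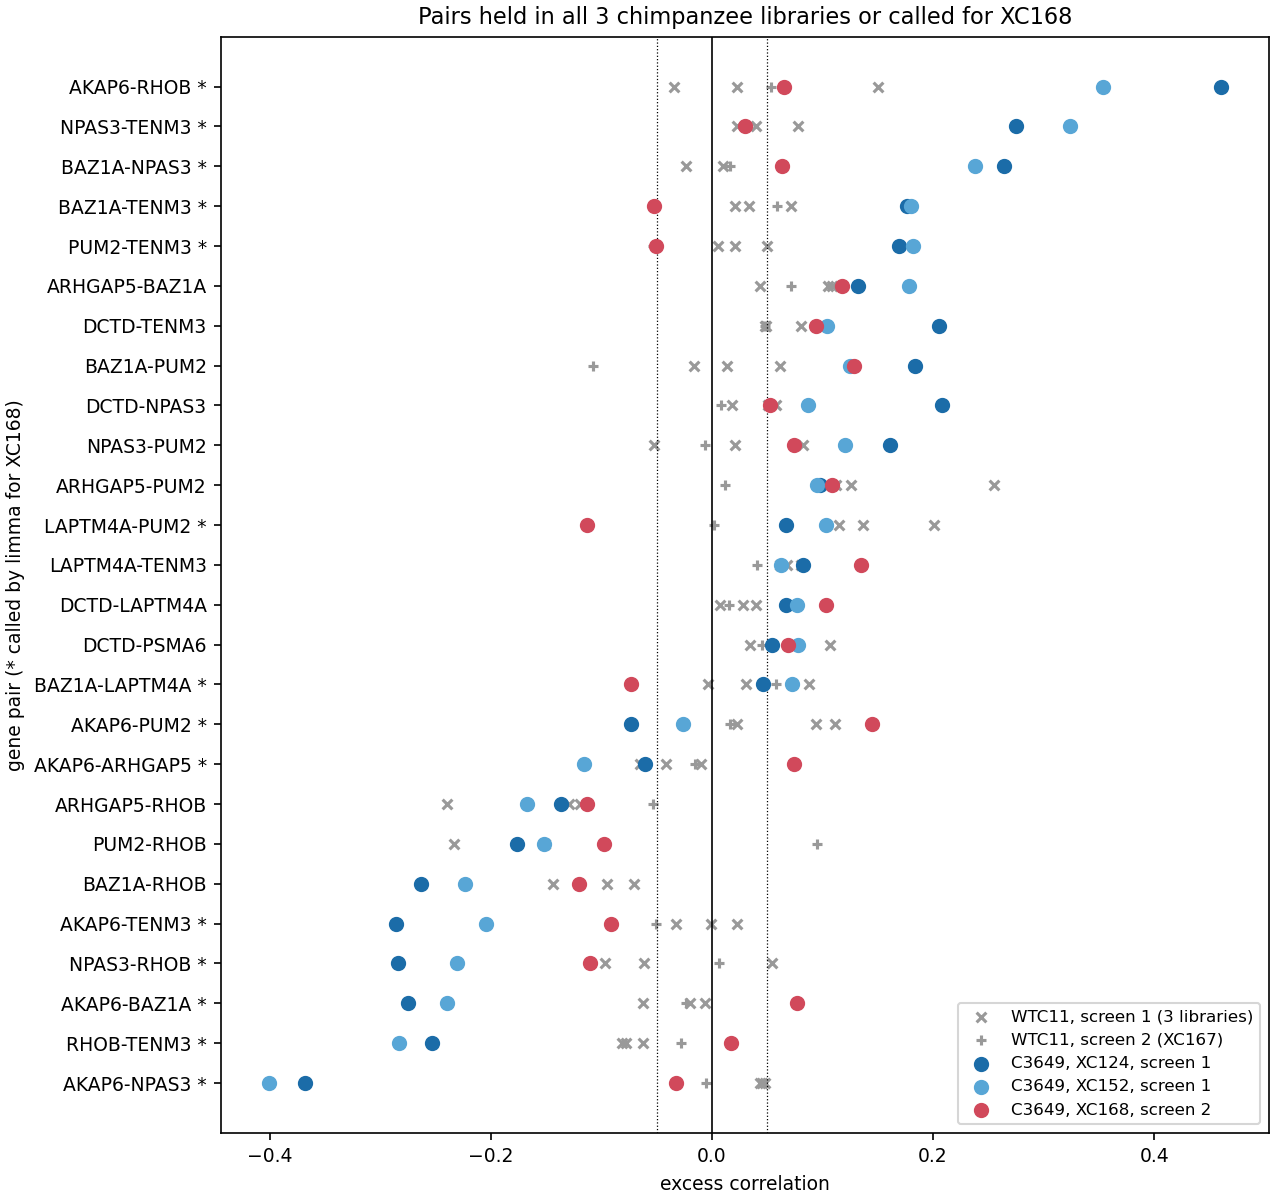
Excess correlation (horizontal axis, dotted lines at ± 0.05) of each pair that held in all 3 chimpanzee libraries or that limma called for XC168 (star), by library. For AKAP6-NPAS3 at the bottom, XC124 and XC152 lie at -0.368 and -0.401, XC168 at -0.0329 and the human libraries between -0.0058 and 0.0477, and some points cover others.

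Cells whose barcode is found in another library had almost no excess in XC168. Over those 1160 cells the root mean square excess was 0.0224, AKAP6-NPAS3 was 0.0292 and the AKAP6 variance ratio was 1.04. Over the other 2902 cells it was 0.0773, with AKAP6-NPAS3 at -0.0949, AKAP6-RHOB at 0.136 and an AKAP6 ratio of 1.33. With shared barcodes removed from every library, an alternative chosen after the data were seen, 18 pairs held, all 16 among them, and limma called 14, of which 13 were the same. XC168 thus stayed below XC124 and XC152 without those cells.

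Depth also moved with the pattern in XC168. Across its cells, the correlation of a gene's share with the log of the cell's UMIs was -0.210 for PUM2, 0.198 for LAPTM4A and 0.161 for RHOB. In XC124 those 3 values were 0.0558, -0.149 and 0.140, and in XC152 they were 0.0796, -0.00847 and -0.00200. Given the log of gene and guide UMIs, the root mean square excess fell to 0.0470 in XC168 and stood at 0.166 in XC124 and 0.150 in XC152, with 9 pairs held. Among cells of 100 to 200 UMIs in every library, also chosen after the data were seen, it was 0.197 in XC124, 0.169 in XC152 and 0.0709 in XC168. XC124 had 57 such cells, limma called 5 pairs, and the gap itself was not tested. Among cells assigned to 1 guide barcode and centred within it, the excess was 0.234 in XC124 (324 cells) and 0.168 in XC152 (903 cells), and XC168 had 6 such cells among all deposited. The part of the guide barcodes in XC168 was not tested.

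The spread beyond drawn cells was largely along 1 axis in XC124 and XC152. The leading axis, taken in units of the drawn cells' SD, held 58.9% of it in XC124, 51.1% in XC152 and 43.6% in XC168. This was not particular to C3649, since it held 64.0% in the human library XC123. In XC125, XC151 and XC167 it held 46.1%, 36.2% and 43.1%. In XC124 its weights were 0.615 for RHOB and 0.523 for AKAP6 against -0.402 for NPAS3, -0.268 for TENM3 and -0.227 for BAZ1A. In XC152 they were 0.597, 0.452, -0.458, -0.323 and -0.263. The axes of XC124 and XC152 had a cosine of 0.988, where 1 is the same direction. In XC168 RHOB (0.626) stood against PUM2 (-0.533), AKAP6 had the other sign (-0.191), and the cosines were 0.482 and 0.501. This changed without the shared-barcode cells, where AKAP6 had the sign of the other libraries (0.109), RHOB was at 0.813, PUM2 at -0.390 and NPAS3 at -0.265, and the cosines were 0.836 and 0.840. The direction of the XC168 axis thus depended on those cells. Over all its member cells the second axis held 29.5% in XC168, against 15.4% in XC124 and 18.4% in XC152. How firmly the leading direction of XC168 is fixed was not tested.

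Cells ranked by their AKAP6 share show the pattern of XC124 and XC152 in levels. The ranking used all gene UMIs of a cell without thinning, so the libraries are not compared at like depth. With medians of 568, 252 and 148.5 gene UMIs, sampling noise weighed most on the ranking of XC168, and its part was not tested. To keep AKAP6 out of the total, each other gene was taken per 100 UMIs of the other 9. From the lowest to the highest quintile of XC124 cells, NPAS3 went from 13.0 to 7.04 and RHOB from 14.4 to 27.2. In XC152 NPAS3 went from 11.7 to 4.97 and RHOB from 20.3 to 31.1, whereas in XC168 NPAS3 went from 10.2 to 9.76 and RHOB from 23.9 to 24.9. The highest quintile over the lowest was 0.540, 0.425 and 0.957 for NPAS3, and 1.89, 1.53 and 1.04 for RHOB. It was 0.621, 0.575 and 1.14 for BAZ1A and 0.706, 0.772 and 0.905 for TENM3. PUM2 gave 0.998, 1.02 and 1.13, and LAPTM4A 1.10, 1.00 and 0.833. Without the shared-barcode cells XC168 gave 0.891 for NPAS3, 1.11 for RHOB, 1.08 for BAZ1A and 0.914 for TENM3. NPAS3 and RHOB thus moved in opposite directions in XC124 and XC152, with PUM2 nearly level.

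**Figure D5:**
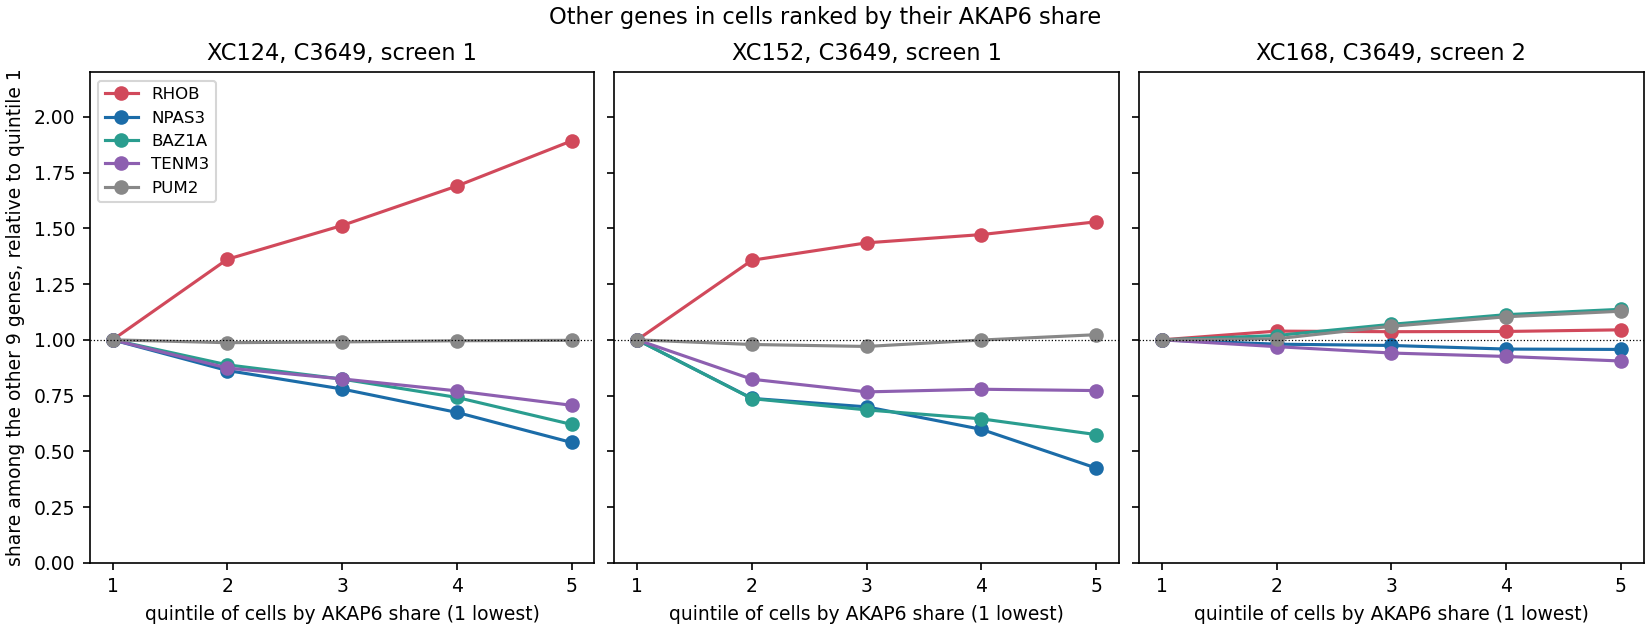
Share of 5 genes among the 9 other than AKAP6 (vertical axis, relative to the lowest quintile) in quintiles of cells by AKAP6 share (horizontal axis), by library. In XC124 and XC152 RHOB reaches 1.89 and 1.53 and NPAS3 0.540 and 0.425, and in XC168 both stay near 1, at 1.04 and 0.957. Cells were ranked without thinning, and XC168 was the shallowest of these libraries.

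The 7 genes on both panels allow a look at XC165 and XC166, the C3649 libraries of screen replicate 2 with 21 genes. Their 21 pairs were taken over cells thinned to 50 UMIs of these genes, so RHOB, PUM2 and LAPTM4A were not in the total. ARHGAP5-BAZ1A alone held in all 5 C3649 libraries, at 0.0729, 0.131, 0.0902, 0.0881 and 0.121 in XC124, XC152, XC168, XC165 and XC166. Of 8 pairs held in XC124 and XC152, 5 also held in both 21-gene libraries. AKAP6-TENM3 was -0.153 in XC165 and -0.208 in XC166, where XC124 and XC152 were both -0.167 and XC168 was -0.0474. AKAP6-BAZ1A was -0.0971 and -0.130, and XC168 alone had the other sign at 0.0710. AKAP6-NPAS3 was small there, at -0.0589 and -0.0582, near -0.0430 in XC168. NPAS3-TENM3, 0.195 and 0.258 in screen replicate 1, was -0.0445 and -0.0085 in XC165 and XC166 and 0.0007 in XC168. AKAP6-PSMA6 was 0.0808 and 0.0955 in XC165 and XC166 and -0.0561 in XC168, AKAP6-ARHGAP5 was -0.0415, -0.0708 and 0.0755, and ARHGAP5-NPAS3 was 0.0722, 0.0724 and -0.0074. XC168 thus had another sign than both other screen replicate 2 libraries in these 3 pairs and in AKAP6-BAZ1A, among others. Its ARHGAP5-NPAS3 value was near 0 and under the size of 0.05 used above. AKAP6-ARHGAP5 was also positive in XC124, at 0.0287, and was -0.0563 in XC152. Without the shared-barcode cells XC168 had 0.0503 for AKAP6-BAZ1A, -0.0377 for AKAP6-TENM3, -0.0767 for AKAP6-NPAS3, 0.0234 for NPAS3-TENM3 and 0.0924 for ARHGAP5-BAZ1A. These libraries share cell barcodes with XC168, as given above, and the differences were not tested.

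Against the human libraries, limma called 0 of 45 pairs between lines, 0% of those tested, with 11 at an unadjusted p under 0.05. The lowest adjusted p was 0.0533, for AKAP6-NPAS3, AKAP6-TENM3, NPAS3-RHOB and BAZ1A-PUM2. AKAP6-NPAS3 was -0.267 ± 0.203 (SD) over the 3 C3649 libraries and 0.0328 ± 0.0257 over the 4 WTC11 libraries, a difference of -0.300 ± 0.0760 (SE). AKAP6-TENM3 was -0.193 ± 0.0976 and -0.0152 ± 0.0326. With the screen replicate as a block, limma called 7 pairs: these 4 with AKAP6-RHOB, BAZ1A-NPAS3 and NPAS3-TENM3. Without XC168 it called 17. The count of calls between lines thus depended on XC168 and on how the screen replicate entered, and on other settings given at the end. The root mean square excess was 0.135 ± 0.0481 (SD, n = 3) in C3649 and 0.0705 ± 0.0257 (n = 4) in WTC11, a difference of 0.0640 (two-sided exact permutation p = 0.114, 35 splits, smallest possible 0.0571).

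In some pairs XC168 differed from its screen replicate 1 libraries in another way than XC167 did from its own. Both were the lowest of their line in root mean square excess, at 0.0797 and 0.0478. XC167 was also shallow, with a median of 143 gene UMIs per member cell, against 267.5 to 363.5 in the other human libraries of the panel. Its leading guide barcode held a median 7.93% of guide UMIs. The interaction of line and screen replicate, added after the data were seen, was called by limma for 10 of 45 pairs, 22.2% of those tested. It was 0.402 ± 0.0656 (SE, adjusted p = 6.85e-05) for AKAP6-NPAS3 and -0.349 ± 0.0821 for AKAP6-RHOB. Each line has 1 library of screen replicate 2 with this panel, so the line, the screen replicate and the single library cannot be told apart here.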

How the data were processed

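The deposited tables hold UMI counts per cell barcode, with columns for gene probes and for guide barcodes per the file headers, and all values were whole numbers. Per the submitters' processing notes, SAMtools, Bowtie, UMI-tools and fastp were used with the hg38 build; versions and the authors' rule for keeping cells were not stated there. Groups and screen replicates came from titles. The 10 gene columns were used without guide columns. Cells needed 100 gene UMIs, and each was thinned to 100 by the exact mean over all draws, subtracting the multinomial value of the library's mean profile. No doublet caller was run; removing the 5% of cells with most UMIs was an alternative. A cell was assigned to a guide barcode with at least 5 UMIs and 70% of its guide UMIs.

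Libraries were compared with limma 3.58.1 (R 4.3.3), Benjamini-Hochberg at 0.05, and 1 value by an exact permutation test (SciPy 1.17.1, Python 3.11.15). Pairs share genes and are not independent. Both scripts were tested on simulated data. The members and lists were chosen with earlier results of these data known. Named were all 10 genes, all held pairs but 1, the 5 pairs farthest outside the range of XC124 and XC152, and pairs called by limma; others were chosen after their values were seen. The screen replicate number, shared by both lines in the titles, was the replicate block. The differences between screen replicates of both lines had r = 0.201 over 45 pairs, a description. That 1 held pair is not reported here.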

Additional observations from a re-analysis of the deposited data

Results flagged for a closer look

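The difference of screen replicate 2 from screen replicate 1 was tested between lines (C3649 minus WTC11, limma interaction over 45 pairs). It was 0.329 for AKAP6-BAZ1A, 0.402 for AKAP6-NPAS3, 0.255 for AKAP6-PUM2 and 0.201 for AKAP6-TENM3. For AKAP6-RHOB it was -0.349. PUM2-RHOB gave -0.206 and RHOB-TENM3 gave 0.240. BAZ1A-NPAS3 gave -0.188, BAZ1A-TENM3 -0.247 and NPAS3-TENM3 -0.255. These 10 passed the adjusted threshold and 14 passed unadjusted.

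Among the 21 pairs of the 7 genes on both panels, 2 had 1 of the 5 C3649 libraries far from the others, where chance flags about 1 in 20. AKAP6-DCTD was 0.119 in XC152 and between -0.0699 and -0.0248 in the others. ARHGAP5-TENM3 was -0.0597 in XC168 and between 0.00834 and 0.0338 in the others.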

How the results depend on the processing

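Pairs held in all 3 chimpanzee libraries numbered 16, and 7 with cells thinned to 50 UMIs, 9 given depth, 5 with a size of at least 0.10, and without RHOB 1 at 50 UMIs and 5 at 100. Leaving out 1 library gave 17 to 28, the highest without XC168. Single pairs were not equally firm. Of 12 alternative settings, ARHGAP5-BAZ1A held under 11, BAZ1A-NPAS3 under 6 and DCTD-PSMA6 under 3. The mean excess of NPAS3-PUM2 turned to -0.000137 and -0.00394 without RHOB at 50 and 100 UMIs. Pairs of XC168 outside the range numbered 28, and 16 at 50 UMIs, 12 without RHOB at 50 UMIs and 15 with a distance of at least 0.10. The limma calls for XC168 numbered 14, and 8 at 200 UMIs, 5 among cells of 100 to 200 UMIs and 8 to 18 leaving out 1 library, the lowest without XC124 and the highest without XC123. AKAP6-BAZ1A, AKAP6-NPAS3 and PUM2-TENM3 were called under all 20 alternatives run, and RHOB-TENM3 under all 18 that had RHOB. Genes whose spread differed in XC168 numbered 3 to 5 leaving out 1 library.

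Pairs called between lines numbered 0, and 7 with the replicate block. They were 6 at 200 UMIs, 3 with 1 random draw, 3 by Spearman correlation, 6 among cells deeper than the median, 4 by Fisher's z, 12 among cells with 1 guide barcode, and 5 without barcodes found elsewhere. Without RHOB they were 1 at 50 UMIs and 4 at 100, and for the 7 genes of both panels 1, also 1 with replicate block and panel. Leaving out 1 library gave 0 to 17, the highest without XC168. Pairs of the 7 genes held in XC124, XC152 and both 21-gene libraries numbered 5, and 3 at 30 UMIs. The cause of these changes was not tested. The exact test of total covariation could not pass, since its smallest p is 0.0571 with all 7 libraries and larger with fewer. Centring within emulsions was not run, since cell names carried no emulsion tag. XC167 and XC168 had too few cells with 1 guide barcode for that alternative. The error of a value within 1 library was not estimated.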
